A study of Mus musculus with 16 samples.

Results

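The genes described here are the 10 core genes of the circadian clock, Arntl (also called Bmal1), Clock, Npas2, Per1, Per2, Per3, Cry1, Cry2, Nr1d1 and Nr1d2, taken by name from the 25719 genes of a table of whole-liver RNA of 16 mice. All 10 were found once each, and all passed the filter on low values in every comparison. Male C57BL6J mice (WT) and Klrk1-/- mice were 8 to 12 weeks old when they were given a normal chow diet (NCD) or a steatosis-steatohepatitis diet (SSD), which is rich in fat, fructose and cholesterol, and were analysed after 3 weeks. Klrk1 encodes NKG2D, an activating receptor of NK cells and T cells, which the Klrk1-/- mice lack. The groups held 4 WT mice fed NCD, 5 WT mice fed SSD, 4 Klrk1-/- mice fed NCD and 3 Klrk1-/- mice fed SSD, each mouse giving 1 library. Mice ate without restriction. The hour of the day at which each liver was collected is not given in the sources used here, so a difference in collection time between groups and an effect of diet or genotype on these genes cannot be told apart.

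The clock is a loop of transcription with a period of about a day. ARNTL pairs with CLOCK, or with its relative NPAS2, and the pair switches on the Per and Cry genes through E-boxes in the DNA. PER and CRY proteins then return to the nucleus and silence the pair. The nuclear receptors encoded by Nr1d1 and Nr1d2 (REV-ERBα and REV-ERBβ), also switched on by the pair, repress Arntl and Npas2. In liver the messenger RNA of most of these genes rises and falls steeply over the day, while that of Clock stays more even, and feeding times, glucocorticoids and body temperature can shift the rhythm. A single collection per mouse therefore reads 1 phase of it.

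Libraries held 19892025 to 28936707 reads on genes. Klrk1 was at 20.1 to 28.7 normalized counts in the WT mice fed NCD and at 32.9 to 71.1 in those fed SSD, against 1.23 to 8.71 and 0.966 to 4.29 in the Klrk1-/- mice, in keeping with the genotype labels in all 16 mice. The highest normalized counts among Klrk1-/- mice were those of NCD mice 3 and 2 (8.71 and 4.98, from 7 and 4 reads), still below every WT mouse. The Klrk1-/- mice fed NCD with the numbers 2 and 3 stood apart from the other two of their group in Gdpd3 (48.5 and 16.2 against 326 and 522 normalized counts) and Rilpl1 (101 and 47.3 against 591 and 605), genes chosen after their values were seen, and lay near the WT mice there. The clock gene calls that rest on this group are therefore also given without those mice, which was not done for genes of other lists. Over all genes with enough reads, the distance between libraries was also measured as a chi-square of reads per gene. By it mouse 2 lay near mice 1 and 4 of its group (17.4 and 14.2) and did not stand apart. Mouse 3 lay further from mice 1, 2 and 4 (43.0, 39.2 and 36.45). Among the SSD-fed WT mice, mouse 1 held the highest summed level of macrophage markers (17301 normalized counts, group median 7908) and of stellate cell markers (24853, group median 8933.5). By the same chi-square it lay at 73.2 to 100.8 from its group mates, whose pairs with each other were at 18.8 to 36.1. It was also the lowest of its group in Clock, Cry1, Cry2 and Nr1d1, and not in the other clock genes.

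Promoter windows of 300 bases, 250 before and 50 after the start of transcription, were found in a RefSeq table (built on GRCm38.p6) for 9 of the 10 genes, with 13 windows between them. Per2 has no entry there. Of these, 12 windows were found once in GRCm39, whose coordinates are given. The windows were searched on both strands for the E-box CACGTG, for its variant CACGTT, for the D-box TTATGTAA or TTACGTAA (bound by DBP, TEF, HLF and NFIL3) and for the ROR element (an A, any 2 bases, a T, an A or G and then GGTCA, through which RORs activate and REV-ERBs repress). Of 32851 promoter windows in the table, 7.15% held CACGTG, 4.68% held CACGTT, 1.06% held a D-box and 1.6% held the ROR element. The stretches below are those of the clock genes that held a match, shown as matches of letters to motifs of the loop. Capitals mark the matched motif, with CACGTT on the other strand read as AACGTG, and sequences run 5′ to 3′ on the strand of the gene. Stretches that reach an annotated untranslated region were shortened to 30 bases.
Per1 (chr11:68989597-68989626, plus strand, E-box 166 bases before the start): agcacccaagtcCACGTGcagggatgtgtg
Cry1 (chr10:85020971-85021000, minus strand, CACGTT variant 79 bases and E-box 60 bases before the start): agaAACGTGaggtgccggtggtCACGTGgg
Cry2 (chr2:92264528-92264627, minus strand, CACGTT variant 166 bases before the start): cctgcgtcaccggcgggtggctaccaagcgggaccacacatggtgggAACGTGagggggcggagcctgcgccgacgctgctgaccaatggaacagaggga
Nr1d1 (chr11:98666204-98666303, minus strand, CACGTT variant 28 bases before the start): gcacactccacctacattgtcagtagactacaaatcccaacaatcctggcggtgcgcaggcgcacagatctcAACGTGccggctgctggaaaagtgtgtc
Per3 (chr4:151129251-151129350, minus strand, D-boxes 205 and 158 bases before the start): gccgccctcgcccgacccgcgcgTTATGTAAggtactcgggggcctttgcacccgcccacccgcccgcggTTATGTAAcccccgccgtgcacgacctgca
Arntl (chr7:112806735-112806764, plus strand, ROR element 28 bases into the transcribed part of the second of its windows): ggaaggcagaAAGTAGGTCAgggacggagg

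These matches are descriptions of the windows and say nothing of binding in these livers. Npas2, Clock, Nr1d2 and the other windows of Arntl and Per1 held none of these letters.

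All 10 genes were measured with ease at this depth, the lowest single value being 27 reads of Per3. Per kilobase, with the length of each gene as the table gives it, Nr1d1 stood highest and Per3 lowest in all 4 groups. In WT mice fed NCD the order of the levels, in normalized counts per kilobase, was Nr1d1 (592 ± 144, SD), Cry1 (454 ± 86.0), Nr1d2 (352 ± 58.9), Cry2 (282 ± 32.5), Per2 (280.0 ± 69.6), Clock (207 ± 13.3), Arntl (186 ± 34.3), Per1 (180.4 ± 59.5), Npas2 (94.5 ± 14.0) and Per3 (37.6 ± 13.2). Of neighbours in this order, Nr1d1 and Cry1, Cry2 and Per2, Clock and Arntl, and Arntl and Per1 differed by less than the larger of their SDs. The lengths decide the middle of this order: with the summed exon length of the GENCODE annotation in its place, Per2 came next to Nr1d1 (129.3 ± 32.2) and Cry1 followed (93.7 ± 17.8), while Npas2 and Per3 stayed the lowest. In Klrk1-/- mice fed SSD, Per2 was the lowest but for Per3 with either length.

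**Figure D1:**
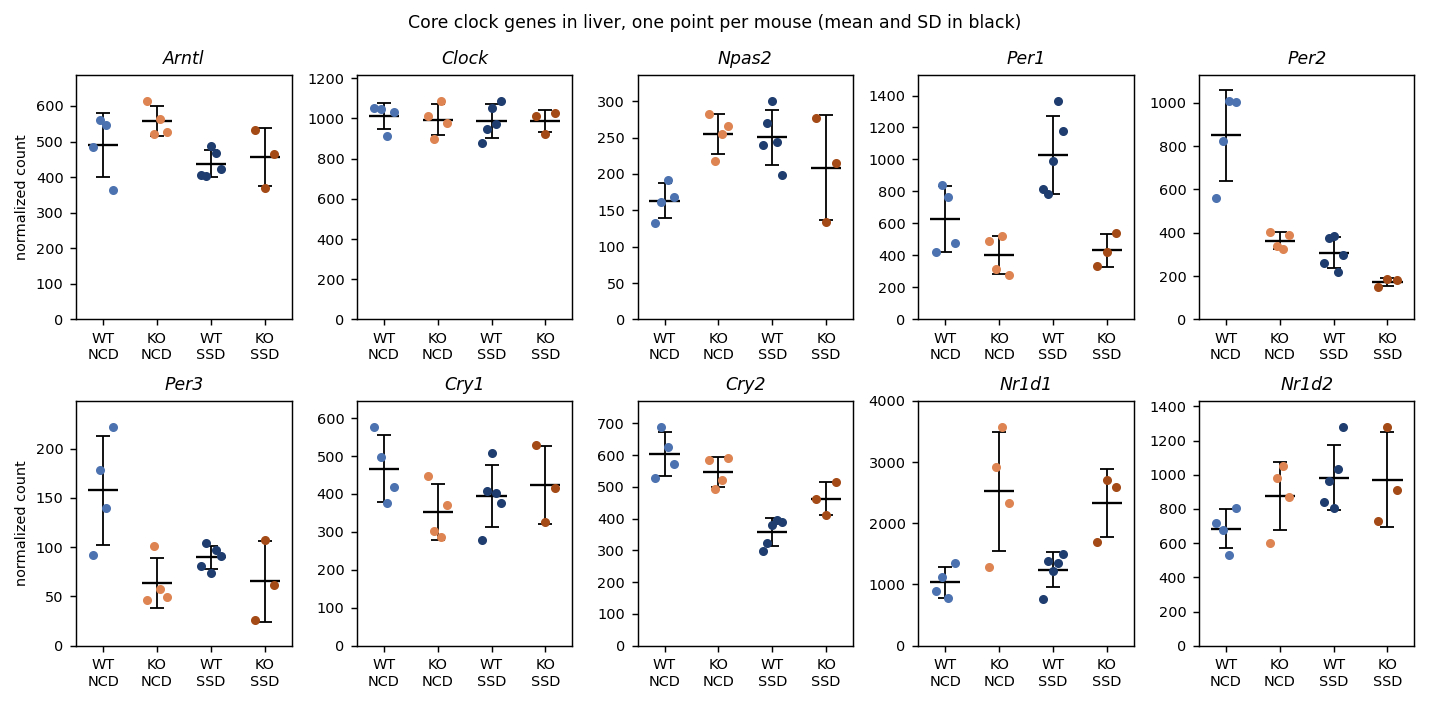
Normalized counts (y axis, from 0) of the 10 core clock genes in each mouse, by genotype (WT or Klrk1-/-, written KO) and diet (NCD or SSD) on the x axis; black bars give the mean and SD. Per2 lies at 559.6 to 1009 in WT mice fed NCD and at 151 to 186 in Klrk1-/- mice fed SSD, while Clock lies between 879 and 1088 in every mouse.

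SSD feeding in WT mice moved 6 of the 10 genes past the threshold of an adjusted p of 0.05 (limma on log2 values, Benjamini-Hochberg adjustment over 13091 genes), against 34.9% of all genes tested. Per1, Npas2 and Nr1d2 were higher (17.3% of all genes were called higher) and Per2, Cry2 and Per3 were lower (17.6% called lower), so that members of the same family moved in opposite directions. With sample totals made equal, which raises the median of all genes here by 0.34 on the log2 scale, 5 were called higher and 2 lower. That scaling called 7060 of 13177 genes in either direction, instead of 4568 of 13091. For Npas2, Per2 and Cry2 the values of the 2 diets did not overlap, as for 29% of all genes. In Klrk1-/- mice the same change of diet moved 1 gene past the threshold, Per2, which was lower and did not overlap. Of 12904 genes there, 29.4% were called, 13.4% higher and 16% lower, and 37.6% did not overlap. On NCD, 4 of the 10 genes were called between genotypes, Npas2 and Nr1d1 higher and Per2 and Per3 lower in Klrk1-/- mice, and 2 did not overlap. Of 12845 genes, 13.1% were called on NCD, 6.41% higher and 6.66% lower, and 19.3% did not overlap. On SSD, 2 of the 10 were called, Per1 and Per2, both lower in Klrk1-/- mice, and 4 did not overlap. Of 13116 genes, 2.9% were called on SSD, 1.22% higher and 1.68% lower, and 17.9% did not overlap. These shares rest on single mice as well, since leaving out 1 mouse moved the count of all genes called from 1679 to between 717 (without Klrk1-/- mouse 3) and 2189 on NCD, and from 381 to between 45 (without Klrk1-/- mouse 1) and 717 (without WT mouse 1) on SSD. With SSD in Klrk1-/- mice it fell from 3790 to 2397 without Klrk1-/- SSD mouse 1. The 2 diet comparisons and the 2 genotype comparisons share groups, so their counts are not independent of each other.

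**Figure D2:**
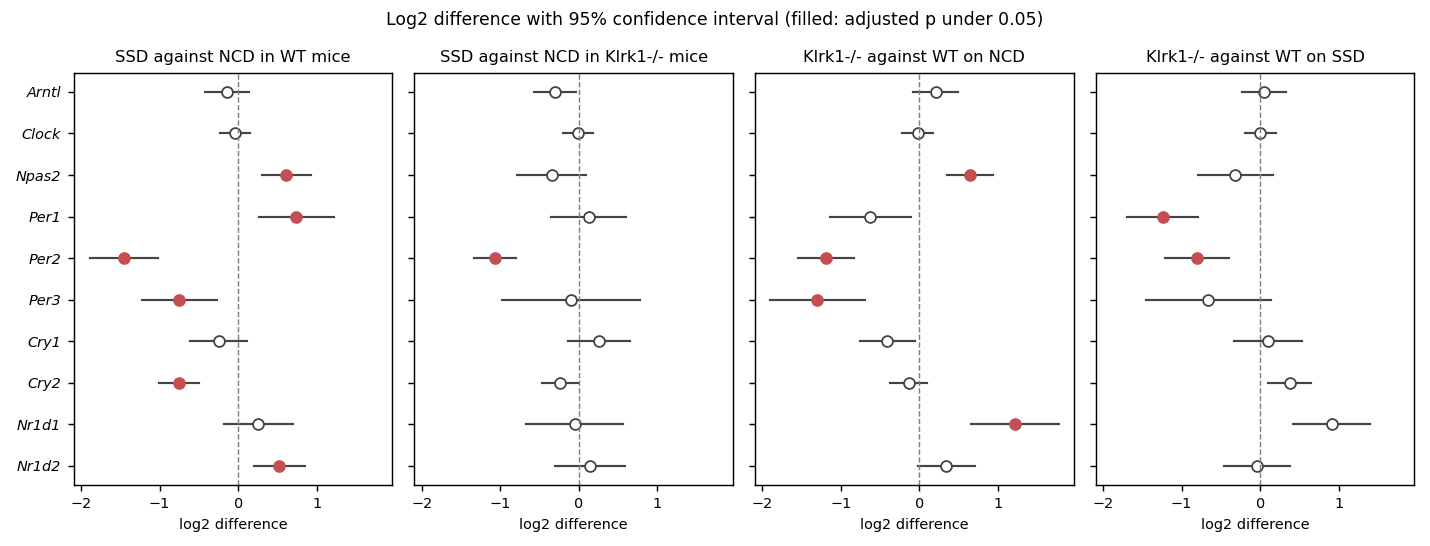
Log2 difference of each core clock gene (x axis) with its 95% confidence interval from limma, in the 4 comparisons; filled points passed an adjusted p of 0.05. Per2 is the gene that is filled in every panel, with differences of -1.46, -1.07, -1.19 and -0.80.

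Per2 (chr1:91343704-91387046, minus strand), a repressor that also answers to glucocorticoids and body temperature, was lower in every comparison. WT mice fed NCD held 559.6, 825, 1009 and 1003 normalized counts. WT mice fed SSD held 260.4, 375, 383, 220.3 and 299. Klrk1-/- mice held 406, 338, 323 and 387 on NCD and 151, 186 and 183 on SSD. No value of 1 group lay within the range of the group it was compared with, and the 3 lowest values of all 16 were those of the Klrk1-/- mice fed SSD. With SSD, Per2 fell by 1.46 on the log2 scale in WT mice (95% interval -1.89 to -1.02, limma adjusted p = 0.000243, exact permutation p = 0.0159, two-sided, the smallest that 5 against 4 mice allow). In Klrk1-/- mice it fell by 1.07 (interval -1.33 to -0.80, limma adjusted p = 6.64e-05, exact p = 0.0571, the smallest that 3 against 4 allow, so that test could not reach 0.05). Between genotypes it was lower in Klrk1-/- mice by 1.19 on NCD (log2 difference -1.19, limma adjusted p = 0.00117) and by 0.80 on SSD (-0.80, limma adjusted p = 0.0476). A model of all 16 mice did not call a difference between these 2 values (0.39, interval -0.175 to 0.95, limma adjusted p = 0.469). Without the Klrk1-/- NCD mice 2 and 3, the difference between genotypes on NCD was -1.06 (limma adjusted p = 0.025) and that between diets in Klrk1-/- mice -1.20 (adjusted p = 0.000157). The call on SSD was close to the threshold. It was lost with edgeR (adjusted p = 0.0538), with a pseudocount of 10 and with no minimum mean (limma adjusted p = 0.0537 and 0.0524). Leaving out any 1 of the WT SSD mice 2, 3 and 5 or of the Klrk1-/- SSD mice also ended it (limma adjusted p = 0.056 to 0.201). Over all alternatives that leave out 1 mouse Per2 there ranged from -0.91 to -0.71.

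Per1 (chr11:68986043-69000786, plus strand), whose transcription is induced rapidly by glucocorticoids and other signals, did not fall with SSD as Per2 did. On SSD both genes were called lower in Klrk1-/- than in WT mice. WT mice fed NCD held 423, 839, 765 and 477 normalized counts, and WT mice fed SSD held 815, 787, 991, 1367 and 1177. Klrk1-/- mice held 493, 317, 519.8 and 280.5 on NCD, and 334, 420.0 and 541 on SSD. The SSD-fed WT mice were therefore the high group, with 1 WT mouse fed NCD reaching into their range. Per1 rose 1.67-fold with SSD in WT mice (log2 difference 0.74, interval 0.26 to 1.22, limma adjusted p = 0.0218, exact p = 0.0635), a call that was lost without any one of the WT mice NCD 1, NCD 5 or SSD 4 (limma adjusted p = 0.0748, 0.0654 and 0.051). In Klrk1-/- mice the log2 difference between diets was 0.12 (interval -0.36 to 0.61). On SSD, Per1 was 2.37-fold lower in Klrk1-/- than in WT mice, with no overlap (log2 difference -1.24, limma adjusted p = 0.0148, exact p = 0.0357), and the call was lost without Klrk1-/- SSD mouse 1 or mouse 2 (limma adjusted p = 0.0835 and 0.0707). On NCD the log2 difference between genotypes was -0.63 (limma adjusted p = 0.0982). The ratio of Per1 to Per2 in each mouse set the diets apart, while the genotypes overlapped on each diet. On the log2 scale Per1 minus Per2 ran from -1.07 to 0.02 in WT mice fed NCD and from 1.07 to 2.63 in WT mice fed SSD. It ran from -0.47 to 0.68 and from 1.14 to 1.56 in the Klrk1-/- mice fed NCD and SSD.

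Per3 (chr4:151088109-151129122, minus strand), the period gene that the loop can best do without, was the least abundant and the most variable. Its values were 91.7, 178, 139 and 222 normalized counts in WT mice fed NCD and 81.0, 104, 74.2, 96.8 and 91.4 in those fed SSD. They were 46.0, 101, 57.2 and 49.2 in Klrk1-/- mice fed NCD and 26.1, 108 and 61.7 in those fed SSD. Of the 4 WT mice fed NCD, 3 were above all other mice. Per3 was lower on SSD in WT mice (log2 difference -0.75, interval -1.23 to -0.27, limma adjusted p = 0.0219, exact p = 0.0476) and 2.47-fold lower in Klrk1-/- than in WT mice on NCD (log2 difference -1.30, limma adjusted p = 0.0124, exact p = 0.0571), although the groups overlapped in both. The diet call was lost without WT NCD mouse 2 or mouse 5 (limma adjusted p = 0.0634 and 0.0658), with sample totals made equal (-0.41, adjusted p = 0.167) and in 1 model of the 4 groups (adjusted p = 0.076). On NCD the difference between genotypes was -1.64 without the Klrk1-/- NCD mice 2 and 3 (limma adjusted p = 0.0159).

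Of the cryptochromes, which hold back the activators most directly, Cry2 (chr2:92233991-92264388, minus strand) was lower on SSD in WT mice and Cry1 (chr10:84967564-85020928, minus strand) was not called in any comparison. Cry2 was at 528, 689, 627 and 572 normalized counts in WT mice fed NCD and at 298, 324, 381, 397 and 389 in WT mice fed SSD, with no overlap. It fell by 0.76 on the log2 scale, a 1.69-fold difference (limma adjusted p = 0.000513, exact p = 0.0159). In Klrk1-/- mice Cry2 was at 584, 493, 521 and 590.4 on NCD and at 464, 411 and 516 on SSD, a log2 difference of -0.24 (interval -0.47 to -0.01, limma adjusted p = 0.111). Every Klrk1-/- mouse fed SSD was above every WT mouse fed SSD (log2 difference 0.38, exact p = 0.0357), but the model across all genes did not call it (limma adjusted p = 0.117). Cry1 ranged from 278 to 576 normalized counts over the 16 mice, and its log2 differences were -0.25 and 0.26 with SSD in WT and Klrk1-/- mice, and -0.41 and 0.10 between genotypes on NCD and SSD. With sample totals made equal, the difference with SSD in Klrk1-/- mice was 0.52 and called (limma adjusted p = 0.0395).

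Among the activators, Clock (chr5:76357715-76452639, minus strand) was the most even gene. Its group means were 1011 ± 65.2 and 988 ± 84.1 normalized counts in WT mice fed NCD and SSD, and 994 ± 78.1 and 988 ± 54.8 in Klrk1-/- mice. All 4 log2 differences lay within 0.04 of 0, with intervals that together ran from -0.23 to 0.20. Arntl (chr7:112806672-112913333, plus strand), the partner that the loop cannot do without, was at 484, 562, 547 and 364 normalized counts in WT mice fed NCD and at 406, 403, 487, 466 and 424 in WT mice fed SSD. It was at 615, 521, 565 and 528 in Klrk1-/- mice fed NCD and at 531, 369 and 466 in those fed SSD. These ranges overlapped in every comparison, and none was called. The lowest p was that of the diet in Klrk1-/- mice (log2 difference -0.30, interval -0.57 to -0.03, limma adjusted p = 0.0841; -0.42 and called without Klrk1-/- SSD mouse 1, adjusted p = 0.0423).

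Npas2 (chr1:39232812-39402317, plus strand), which can take the place of Clock, was the activator that moved. WT mice fed NCD held 133, 162, 192 and 168 normalized counts, below every value of the WT mice fed SSD (239.8, 270.4, 301, 243 and 199) and of the Klrk1-/- mice fed NCD (283, 218, 255 and 266). Npas2 was 1.53-fold higher with SSD in WT mice (log2 difference 0.61, interval 0.30 to 0.92, limma adjusted p = 0.00649, exact p = 0.0159) and 1.56-fold higher in Klrk1-/- than in WT mice on NCD (log2 difference 0.64, limma adjusted p = 0.0104, exact p = 0.0286), and 0.75 without the Klrk1-/- NCD mice 2 and 3 (limma adjusted p = 0.0428). In Klrk1-/- mice fed SSD the values spread widely, at 277, 133 and 215, and the log2 difference between diets was -0.35 (interval -0.79 to 0.10).

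Nr1d1 (chr11:98658758-98666159, minus strand) had the highest mean count of the 10 genes in all 4 groups. WT mice held 894, 1128, 778 and 1346 normalized counts on NCD and 762, 1379, 1223, 1356 and 1503 on SSD. Klrk1-/- mice held 1281, 2918, 3573 and 2329.7 on NCD and 1687, 2708 and 2586 on SSD. Klrk1-/- NCD mouse 1 was the only Klrk1-/- mouse within the range of the WT mice. On NCD, Nr1d1 was 2.33-fold higher in Klrk1-/- mice (log2 difference 1.22, interval 0.66 to 1.78, limma adjusted p = 0.0113, exact p = 0.0571), and 0.77 and not called without the Klrk1-/- NCD mice 2 and 3 (limma adjusted p = 0.149). On SSD it was 1.88-fold higher with no overlap (log2 difference 0.91, interval 0.42 to 1.40, exact p = 0.0357), with a limma adjusted p = 0.0606 that passed the threshold with DESeq2 (0.00183) and without WT SSD mouse 1 (0.0182) or mouse 5 (0.0445). The diet gave log2 differences of 0.26 in WT and -0.05 in Klrk1-/- mice, neither called. The one in WT mice was called without WT SSD mouse 1 (0.42, limma adjusted p = 0.0421) and with sample totals made equal (0.60, adjusted p = 0.0204).

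Of the exon bases of Nr1d1, 52.3% (1694 bases) overlap exons of Thra, a thyroid hormone receptor gene on the opposite strand, and whether the counting used strand is not given in the sources used here. Thra was at 234 to 423 normalized counts over the 16 mice. It was not called in any comparison, with log2 differences of -0.24 to 0.20. Npas2 shares 12.7% (697) of its exon bases with the annotated gene Gm53549, and Clock 8.1% with Tmem165, each on the opposite strand.

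Nr1d2 (chr14:4230569-4265642, plus strand) was at 720.0, 678, 532 and 806 normalized counts in WT mice fed NCD and at 839.6, 961, 804, 1036 and 1279 in those fed SSD, overlapping ranges with a 1.43-fold rise (log2 difference 0.52, interval 0.20 to 0.85, limma adjusted p = 0.0187, exact p = 0.0317). This call was lost without WT NCD mouse 3 (adjusted p = 0.0612). Klrk1-/- mice held 599.7, 981, 1051 and 872 on NCD and 731, 1278 and 909 on SSD, and neither the diet (log2 difference 0.14) nor the genotype (0.34 on NCD, -0.04 on SSD) was called there, although the difference on NCD was called without Klrk1-/- NCD mouse 1 (0.51, limma adjusted p = 0.0381). The lowest Klrk1-/- value on either diet was that of mouse 1, as for Nr1d1.

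Whether the diet acted differently in the 2 genotypes was tested by the product term of a model of all 16 mice. It called none of the 10 genes (limma, against 0.88% of 13068 genes), 2 of them had an unadjusted p below 0.05, edgeR called none, and DESeq2 called 1. Npas2 came nearest, with a diet effect lower by 0.96 on the log2 scale in Klrk1-/- mice (difference -0.96, interval -1.51 to -0.41, unadjusted p = 0.00189, limma adjusted p = 0.0916; DESeq2 -0.91, adjusted p = 0.0347). The other was Cry2 (difference 0.52, interval 0.17 to 0.86, unadjusted p = 0.00552, limma adjusted p = 0.131). The intervals of Per1 (-1.37 to 0.13) and Per3 (-0.40 to 1.69) were wide. Over all genes, 17.3% had an unadjusted p below 0.05, and DESeq2 called 3.52%. The count of 115 genes behind the limma share ran from 37 (without Klrk1-/- SSD mouse 3) to 187 (without WT SSD mouse 5) when 1 mouse was left out.

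**Figure D3:**
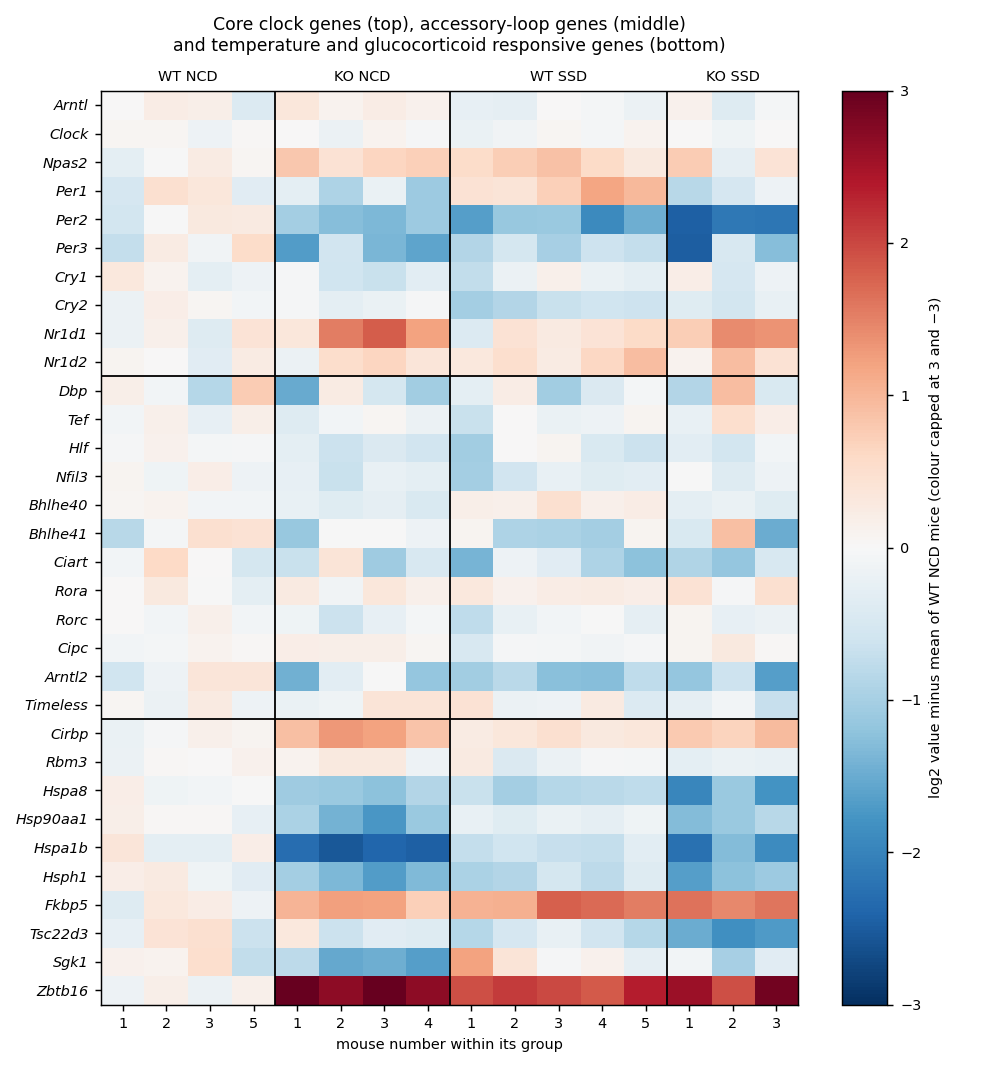
Log2 value of each gene in each mouse (columns, by group) minus the mean of the WT mice fed NCD, with colours capped at 3 and -3; core clock genes at the top, then accessory-loop genes and temperature and glucocorticoid responsive genes with a mean of at least 10 normalized counts. Per2 is blue in all mice outside the WT NCD group, Nr1d1 is above the WT NCD mean in every Klrk1-/- mouse, and Zbtb16 is red in all mice outside the WT NCD group.

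Pairs of clock genes were set against each other in each mouse, which leaves library size out. Nr1d1 minus Per2, on the log2 scale, was -0.37 to 0.67 in WT mice fed NCD, 1.55 to 2.62 in WT mice fed SSD, 1.66 to 3.46 in Klrk1-/- mice fed NCD and 3.48 to 3.86 in Klrk1-/- mice fed SSD. The lowest and highest groups did not overlap with any other, while the middle groups overlapped each other. Arntl minus Per2 was -1.46 to -0.21 in WT mice fed NCD and above 0 in all other mice (0.10 to 1.81). Arntl minus Nr1d1 was -1.88 to -0.51 in WT mice fed NCD, -1.82 to -0.91 in WT mice fed SSD, -2.66 to -1.06 in Klrk1-/- mice fed NCD and -2.87 to -1.67 in Klrk1-/- mice fed SSD, so that all 4 groups overlapped each other. Nr1d1 minus Per1 was 0.02 to 1.5 in WT mice fed NCD, -0.10 to 0.81 in WT mice fed SSD, 1.38 to 3.20 in Klrk1-/- mice fed NCD and 2.26 to 2.69 in Klrk1-/- mice fed SSD, so that the genotypes overlapped on NCD and not on SSD. Npas2 minus Per3 was -0.40 to 0.53 in WT mice fed NCD, below the WT mice fed SSD (1.11 to 2.0) and the Klrk1-/- mice fed NCD (1.10 to 2.59), and was 0.31 to 3.36 in Klrk1-/- mice fed SSD. These pairs were chosen with the values above in view and are given as a description, with no test.

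The genes also differed in how far mice of 1 group lay apart. The SD of the log2 value within groups, pooled over the 4 groups, was 0.57 for Per3, 0.46 for Nr1d1 and 0.41 for Per1, larger than in 98.2%, 96.1% and 94.4% of 10948 genes with a mean of at least 50 normalized counts. It was 0.29 to 0.32 for Npas2, Per2, Cry1 and Nr1d2, 0.20 for Arntl, 0.16 for Cry2 and 0.11 for Clock, against a median of 0.17 over all of these genes. Clock was thus steadier than most genes, with 11.9% of genes below it.

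**Figure D4:**
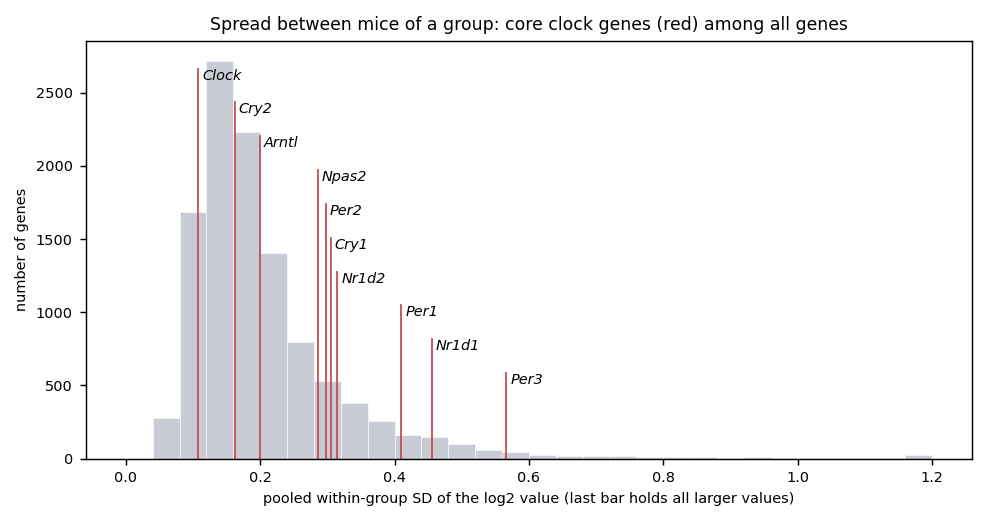
Number of genes (y axis) by the pooled within-group SD of their log2 value (x axis), with the 10 core clock genes marked by red lines. Clock lies at 0.11, below the median of 0.17, and Per3 lies furthest to the right at 0.57.

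Deviations of single mice from their group were compared between the clock genes. After subtraction of group means, Nr1d1 and Nr1d2 moved together over the 16 mice (Pearson r = 0.83, permutation p = 0.00023, adjusted p = 0.01 over 45 gene pairs; Spearman rho = 0.83, permutation p = 0.00066, adjusted p = 0.03). The relation was present on each diet (r = 0.94 on NCD, 0.72 on SSD) and without the 2 mice farthest out in Nr1d1 (r = 0.80). Npas2 and Nr1d2 deviated in opposite directions (r = -0.78, permutation p = 0.0024, adjusted p = 0.054, and rho = -0.79, adjusted p = 0.055). Without the 2 farthest mice their r was -0.68. Arntl and Nr1d2 also did so (r = -0.65, permutation p = 0.013, adjusted p = 0.19, and rho = -0.61, adjusted p = 0.28). Per3 and Nr1d1 deviated together (r = 0.60, adjusted p = 0.21, and rho = 0.72, permutation p = 0.0055, adjusted p = 0.082). These and the remaining pairs did not pass the adjustment.

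**Figure D5:**
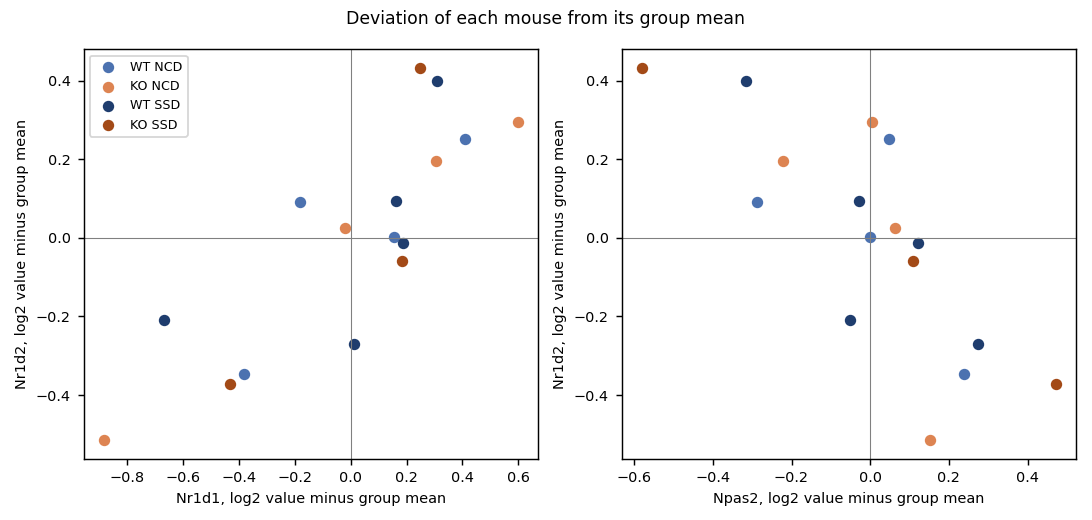
Deviation of each of the 16 mice from its group mean on the log2 scale, for Nr1d1 (left) and Npas2 (right) on the x axis against Nr1d2 on the y axis; colours give the group. The points rise from left to right for Nr1d1 (r = 0.83) and fall for Npas2 (r = -0.78).

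Over 10947 genes with a mean of at least 50 normalized counts, those whose group-centred values over the 16 mice were most like Arntl were Vasn (r = 0.86), Ttc23, Garem1, Il6ra, Mug1, Tsc22d3, Zbtb7c and Mettl14 (0.80). Those most opposite to it were Bclaf3 (r = -0.88), Gbp11, Zfp821, Foxq1, Dbp (-0.82), Snrpg, Myc and Tatdn1. Dbp is a transcription factor that the ARNTL and CLOCK pair switches on. Rora, an activator of Arntl, had an r of 0.77. These values describe 16 mice and carry no p.

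Of 13 genes of the accessory loops (the D-box factors Dbp, Tef, Hlf and Nfil3, the RORs, Bhlhe40, Bhlhe41 and others), 12 were tested. With SSD in WT mice 2 were lower and none higher, against 17.6% of all genes called lower. Nfil3, which opposes DBP at D-boxes, had a log2 difference of -0.50 (limma adjusted p = 0.0233), and Arntl2, a relative of Arntl, one of -1.03 (adjusted p = 0.00925). With SSD in Klrk1-/- mice none was called, against 29.4% of all genes. Hlf (log2 difference -0.49, limma adjusted p = 0.00932) and Bhlhe40 (-0.33, adjusted p = 0.0292), a repressor of the E-box, were lower in Klrk1-/- mice on NCD, and Bhlhe40 was lower on SSD (-0.53, adjusted p = 0.0216), against 6.66% and 1.68% of all genes called lower on NCD and SSD. Dbp, at 63.9 to 199.7 normalized counts in WT mice fed NCD, was not called in any comparison. The median log2 difference of the 12 genes was -0.30 and 0.09 with SSD in WT and Klrk1-/- mice, and -0.33 and 0.13 between genotypes on NCD and SSD, with medians of all genes within 0.01 of 0.

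Genes that act on clock proteins after translation, kinases among them, were called in 3 of 11 cases with SSD in WT mice (all higher), in 4 with SSD in Klrk1-/- mice (3 higher), in 7 between genotypes on NCD (4 higher) and in none on SSD, against 34.9%, 29.4%, 13.1% and 2.9% of all genes. Csnk1e, a kinase of the PER proteins, was higher with SSD in WT (log2 difference 0.89, limma adjusted p = 0.000522) and in Klrk1-/- mice (0.41, adjusted p = 0.0259). Usp2, a deubiquitinase whose own RNA is rhythmic, was 2.01-fold higher with SSD in WT mice (limma adjusted p = 0.00395), higher in Klrk1-/- mice (log2 difference 1.61, adjusted p = 0.00114) and lower in Klrk1-/- than in WT mice on NCD (-1.08, adjusted p = 0.00905).

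Among 12 liver genes with known daily rhythms, 5 were higher and 3 lower with SSD in WT mice, 3 higher and 4 lower with SSD in Klrk1-/- mice, 2 higher and 4 lower in Klrk1-/- than in WT mice on NCD, and 1 higher and 3 lower on SSD, against 34.9%, 29.4%, 13.1% and 2.9% of all genes called in either direction. Noct (nocturnin), a strongly rhythmic liver gene, was at 613.8 to 1159 normalized counts in WT mice fed NCD and at 168 to 293 in Klrk1-/- mice fed NCD, and at 469.7 to 700.8 and 102.4 to 130.1 on SSD, without overlap on either diet (log2 differences -2.09 and -2.17, limma adjusted p = 9.2e-05 and 0.000145). Cyp7a1, the rate-limiting enzyme of bile acid synthesis, was lower in all 4 comparisons (-1.02 and -0.95 with SSD in WT and Klrk1-/- mice, -1.49 and -1.42 between genotypes on NCD and SSD; limma adjusted p = 0.0416, 0.00414, 0.0185 and 0.0114). Upp2, a uridine phosphorylase, was lower with SSD in WT and Klrk1-/- mice (-1.44 and -2.31, limma adjusted p = 0.00064 and 1.12e-05) and higher in Klrk1-/- than in WT mice on NCD (0.78, adjusted p = 0.00799). Lpin1, a phosphatidate phosphatase, was lower with SSD in Klrk1-/- mice (-1.48, limma adjusted p = 3.78e-05) and higher in Klrk1-/- than in WT mice on NCD (1.22, adjusted p = 0.00117). Por, which passes electrons to cytochrome P450 enzymes, was higher with SSD in WT and Klrk1-/- mice (0.95 and 1.70, limma adjusted p = 5.39e-05 and 3.33e-08) and higher in Klrk1-/- than in WT mice on SSD (0.59, adjusted p = 0.0185).

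Body temperature and glucocorticoids are also cues that set the liver clock. Of 10 genes that respond to them, 3 were higher and 4 lower with SSD in WT mice, 3 higher and 3 lower with SSD in Klrk1-/- mice, 3 higher and 5 lower in Klrk1-/- mice on NCD, and 1 higher and 4 lower in Klrk1-/- mice on SSD, against 34.9%, 29.4%, 13.1% and 2.9% of all genes called in either direction. On NCD, the heat shock gene Hspa1b was at 885 to 1387 normalized counts in WT and at 184.2 to 220.6 in Klrk1-/- mice (log2 difference -2.42, limma adjusted p = 1.68e-06), and the cold-inducible Cirbp was at 225.5 to 288.1 and 469.9 to 643.3 (1.07, adjusted p = 0.000455). Rbm3, also cold-inducible, was not called there (0.14, adjusted p = 0.445). The glucocorticoid targets Zbtb16 (3.05, limma adjusted p = 1.68e-06) and Fkbp5 (1.05, adjusted p = 0.00207) were higher in those mice, whereas Sgk1 (-1.36, adjusted p = 0.00418) was lower. On SSD the genotypes did not overlap in Hspa1b (652.9 to 863 normalized counts in WT and 227 to 436.9 in Klrk1-/- mice) or Cirbp (306.9 to 361.6 and 413.6 to 503.1). They overlapped there in Fkbp5 (698.8 to 1188 and 932.4 to 1052), Rbm3, Zbtb16 and Sgk1, and 17.9% of all genes did not overlap. With SSD in WT mice, Zbtb16 (2.04, limma adjusted p = 5.65e-07) and Fkbp5 (1.42, adjusted p = 0.000181) were higher, Tsc22d3 was lower (-0.60, adjusted p = 0.0483) and Sgk1 was not called (0.29, adjusted p = 0.461). The heat shock genes Hspa8 (-0.82, limma adjusted p = 0.000289), Hsph1 (-0.71, adjusted p = 0.00326) and Hspa1b (-0.61, adjusted p = 0.00749) were lower there, and Cirbp was higher (0.33, adjusted p = 0.0243). Tsc22d3 was also lower with SSD in Klrk1-/- mice (-1.42, limma adjusted p = 0.000168), where Fkbp5 (0.51, adjusted p = 0.00846) and Sgk1 (0.89, adjusted p = 0.014) were higher and Zbtb16 was not called (-0.59, adjusted p = 0.085). In the same comparison Hspa1b was higher (0.61, limma adjusted p = 0.0262), and Hspa8 (-0.55, adjusted p = 0.03) and Rbm3 (-0.38, adjusted p = 0.0269) were lower. The part of these cues, and of the hour of collection, in the differences of Per1, Per2 and the other clock genes was not tested.

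Marker RNA of several cell types also differed with diet in this whole tissue, where fewer cells of a type and less RNA per cell cannot be told apart. In WT mice, 3 of 6 hepatocyte markers were lower with SSD, and 3 of 6 macrophage, 2 of 6 stellate cell and 4 of 5 endothelial markers were higher, against 17.6% of all genes called lower and 17.3% called higher. With SSD in Klrk1-/- mice, 4 of 6 hepatocyte markers were lower, and 2 macrophage, 3 stellate cell, 2 endothelial and 1 of 5 cholangiocyte markers were higher, against 16% called lower and 13.4% called higher. The summed macrophage markers were 5024 to 5601 normalized counts on NCD and 6967 to 17301 on SSD in WT mice, and 4351 to 5265 and 5303 to 6689.8 in Klrk1-/- mice. Between genotypes on NCD none of the hepatocyte, macrophage or stellate cell markers was called, and 1 endothelial and 1 B cell marker were higher and 1 cholangiocyte marker lower in Klrk1-/- mice, against 6.41% of all genes called higher and 6.66% called lower. On SSD, 1 of 6 macrophage markers was called lower in Klrk1-/- mice, Cd68 (log2 difference -1.36, limma adjusted p = 0.0135), 3 of the 6 did not overlap, and the median of the 6 was -0.74, against 1.68% of all genes called lower and 17.9% that did not overlap. The part of cell composition in the diet and genotype differences of the clock genes was not tested.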

How the data were processed

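Whole-liver RNA of 16 mice was sequenced as single reads of 100 bases. The sample labels name an mRNA library kit and the methods of the study a total RNA kit. The authors used FastQC for read quality, STAR with GRCm39 for alignment, and FeatureCounts with GENCODE genes for counting (GENCODE version M26, with other versions not given in the sources used here). The deposited signal is a normalized count per gene and sample. The authors also deposited other gene columns, of which only gene length was used. In every sample the values were whole multiples of 1 step (tolerance 0.1 reads, 100% of values), giving 19892025 to 28936707 reads. The deposited columns with fold changes and p-values of the authors' own comparisons were not used, and every column of per-sample values was used.

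Here, log2(normalized count + 1) of genes with a mean of at least 10 was tested with limma 3.58.1 (trend option, R 4.3.3) between the groups of the labels, with Benjamini-Hochberg adjustment over all genes and a threshold of 0.05. Fold changes are on that scale. Exact two-sided permutation tests (scipy 1.17.1) and permutations within groups (100000, for correlations) served for single genes. Alternatives were other pseudocounts and minimum means, equal totals, edgeR 4.0.16 and DESeq2 1.42.0 on recovered reads, a replicate block, 1 model of 4 groups, a fold limit of 1.5 and leaving out each mouse. The fit was tested on simulated data. All 10 genes are named. Of other lists, up to 3 called genes with the largest and 3 with the smallest log2 difference were named as examples. Dbp, Rora, Thra, Gdpd3, Rilpl1, Rbm3, Tsc22d3 and Sgk1 with SSD in WT mice and Zbtb16 with SSD in Klrk1-/- mice were named after their values were seen. The same holds for the temperature and glucocorticoid responsive genes named between genotypes on SSD. The members and lists were chosen with earlier results of these data known. The other members of these lists enter the counts only, and 1 result is not reported here.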

Additional observations from a re-analysis of the deposited data

Results flagged for a closer look

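Of 30 sets of values tested for a lone value (10 clock genes in each of the groups of 4 or 5 mice), 1 was flagged, and chance flags about 1 in 20. Clock was at 913.7 normalized counts in WT NCD mouse 3, with the other 3 mice of that group at 1034, 1046 and 1050.4, so that the gap took a share of 0.887 of the group's range on the log2 scale. That range is narrow, and Clock lay between 879 and 1088 over all 16 mice.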

How the results depend on the processing

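In the 13 calls of the 10 clock genes the direction was the same under every alternative run. A scaling to equal sample totals moved the median log2 difference of all genes to 0.34 with SSD in WT mice, 0.25 with SSD in Klrk1-/- mice and -0.12 between genotypes on SSD, and to -0.03 between genotypes on NCD. With that scaling the called count with SSD in Klrk1-/- mice rose from 1 to 3, and over all genes from 3790 of 12904 to 5635 of 12871. Log2 differences changed sign for Arntl (0.20), Clock (0.31, then called) and Cry1 (0.10) with SSD in WT mice. With SSD in Klrk1-/- mice they did so for Clock (0.25, then called), Per3 (0.15), Cry2 (0.017) and Nr1d1 (0.20). Between genotypes on SSD they did so for Arntl (-0.067), Clock (-0.11) and Cry1 (-0.014), and in the interaction for Clock (-0.06). Over all genes that scaling called 7060 instead of 4568 with SSD in WT mice. On SSD between genotypes, DESeq2 called 1220 of all genes and 1 model of the 4 groups 957, instead of 381. Between genotypes on SSD the count of 2 fell to 1 with a pseudocount of 10, with no minimum mean and with edgeR. DESeq2 called 1 gene in the interaction, Npas2. Signs also changed, all for differences that were not called, with edgeR for Clock (0.002) and Per3 (0.077) and with DESeq2 for Per3 (0.053) with SSD in Klrk1-/- mice.

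Without both Klrk1-/- NCD mice 2 and 3, an alternative chosen after seeing the data, Per3 (0.23) and Nr1d1 (0.40) changed sign with SSD in Klrk1-/- mice and Nr1d1 (0.14) in the interaction, and 3 instead of 4 genes were called between genotypes on NCD, where the calls over all genes fell from 1679 to 240, with fewer mice in that fit. The cause of the other changes was not tested.

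Leaving out 1 mouse at a time, the called count ran from 4 to 7 with SSD in WT mice, from 1 to 2 with SSD in Klrk1-/- mice, from 4 to 5 between genotypes on NCD, from 0 to 3 on SSD (0 without Klrk1-/- SSD mouse 1 or mouse 2) and was 0 in the interaction. Signs changed within these ranges: Clock -0.083 to 0.006 with SSD in WT mice, Clock -0.054 to 0.039, Per1 -0.053 to 0.29, Per3 -0.57 to 0.43, Nr1d1 -0.35 to 0.16 and Nr1d2 -0.072 to 0.33 with SSD in Klrk1-/- mice, Clock -0.073 to 0.022 between genotypes on NCD, Arntl -0.071 to 0.19, Clock -0.038 to 0.05, Cry1 -0.075 to 0.28 and Nr1d2 -0.25 to 0.15 on SSD, and Clock -0.019 to 0.076 in the interaction.

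Replicate numbers showed no steady pairing of the mice, with correlations of same-numbered deviations from -0.13 to 0.25. The 4 comparisons are given in the order SSD in WT mice, SSD in Klrk1-/- mice, and genotypes on NCD and on SSD. In them 0 of 8, 4 of 6, 1 of 6 and 4 of 6 mice correlated best with their own number. The mean correlations were -0.076, 0.073, 0.00092 and 0.12. Whether numbers pair the mice with SSD in Klrk1-/- mice or between genotypes on SSD is not settled by these values. In those comparisons the replicate block kept only mice whose number was present in both groups. It left out WT SSD mouse 4 with SSD in WT mice and Klrk1-/- NCD mouse 4 with SSD in Klrk1-/- mice. Between genotypes it left out WT NCD mouse 5 and Klrk1-/- NCD mouse 4 on NCD, and WT SSD mice 4 and 5 on SSD. This fit called 5, 1, 5 and 3 genes in the same order, and 0 in the interaction, where all mice were kept. Over all genes it called 710 instead of 381 between genotypes on SSD and 2974 instead of 4568 with SSD in WT mice. Per1 with SSD in Klrk1-/- mice (-0.033) and Nr1d2 between genotypes on SSD (0.13) changed sign. The fit also ended the call of Per1 with SSD in WT mice (0.63, limma adjusted p = 0.0617). It brought calls of Cry1 between genotypes on NCD (-0.49, limma adjusted p = 0.0252) and Nr1d1 on SSD (1.07, limma adjusted p = 0.00597). With no block, Per1 was also 0.63 without WT SSD mouse 4 (limma adjusted p = 0.051) and -0.033 without Klrk1-/- NCD mouse 4. The changes can therefore not be credited to the block alone.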
